A study of Mus musculus with 3 samples.

Results

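The GABA-A receptor is the ligand-gated chloride channel through which GABA inhibits neurons, and 7 of the mouse genes that encode its subunits are described here. They are the alpha subunit genes Gabra2, Gabra3, Gabra4 and Gabra5, the beta subunit genes Gabrb1 and Gabrb2, and the delta subunit gene Gabrd. They were listed by gene symbol, with earlier results of these data known, and make up 7 of the 20808 genes measured. The receptor is a pentamer, most often of alpha and beta subunits with a gamma or delta subunit. GABA binds between an alpha and a beta subunit. The alpha subunit sets much of the pharmacology and location of a receptor, and receptors with a delta subunit sit outside synapses and carry tonic inhibition. In the developing cortex GABA also depolarizes immature neurons, and the set of subunits changes as neurons mature.

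Ribosome footprints, the stretches of mRNA shielded by a ribosome during nuclease digestion, were sequenced from primary cortical neurons cultured from mid-gestation CD-1 mouse embryos. The WT culture was left without drug. The Chx culture had cycloheximide, an inhibitor of elongation, for 2 min. The Harr culture had harringtonine, which holds newly initiated ribosomes at start codons, for 2 min and then cycloheximide. All 3 libraries had cycloheximide at 100 µg per ml in their buffers and pooled 3 dishes each. The genotype is not given in the labels, and WT here names the untreated culture. The free-text description of each sample goes against its title and treatment, since it names an input or pulldown fraction of a "dep neuron". The titles and treatments were followed, and the conflict could not be settled from the files.

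There was 1 library per treatment, so the differences below describe these libraries without a check by replicates or a p-value. Intervals are 95% counting intervals. They and the floor, set at 3 counts, allow for counting error and for nothing else. The libraries held 35722483 (Chx), 9754412 (Harr) and 30219197 (WT) reads, so 3 counts equal 0.0840, 0.308 and 0.0993 reads per 1000000, and Harr values are the least precise. Markers of neurons summed to 5654 (Chx), 4219 (Harr) and 5986 (WT) CDS reads per 1000000, against 2.80, 1.44 and 2.68 for microglia. The 4 astrocyte markers summed to 195, 78.8 and 213, and the 4 oligodendrocyte markers to 6.52, 2.15 and 5.72, with 2 of them at 0 in each library. Markers of excitatory neurons summed to 293, 223 and 256, and the 3 GABAergic markers to 1194, 587 and 1332. Scaled to all reads, these sums were lowest in Harr, as were the 7 subunit levels in RPKM below. The CDS held a smaller share of the reads in Harr, and scaled to CDS reads alone the order changed in part. Per 1000000 CDS reads, the neuron markers summed to 9992 (Chx), 10902 (Harr) and 10849 (WT) and the excitatory markers to 517, 575 and 465, both highest in Harr. The GABAergic markers summed to 2110, 1516 and 2415 and the astrocyte markers to 345, 204 and 386, lowest in Harr on either scale. On this scale the subunit levels summed to 609, 648 and 622, again highest in Harr. The part of the cell type markers in the subunit levels was not tested. Fewer cells of a type and less RNA per cell cannot be told apart in such cultures, and a footprint level combines mRNA abundance with ribosome occupancy.

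The starts of the 7 coding sequences are shown because of how reads were assigned. The table headers give the 5′ end, a little upstream of the codon in the ribosome, and by that rule a ribosome on the start codon is counted in the 5′ UTR. For its search of reading frames the study describes a position set from the 3′ end of the read, by which such a ribosome would count in the CDS. The headers were followed, and the 5′ UTR:CDS ratios below rest on that rule. The windows are from GENCODE M21 transcripts (mm10), 5′ to 3′ along the mRNA, with the start codon in capitals.
Gabra2: ggcaacaagaagATGaagacaaaattgagc
Gabra3: ctgtctaagaagATGataatcacacaaatg
Gabra4: catgttgcgaagATGgtttctgtccagaag
Gabra5: ttcttactgggaATGgacaatggaatgctc
Gabrb1: tcagagttaggaATGtggacagtacaaaat
Gabrb2: gaacctaaagggATGtggagagtccggaaa
Gabrd: gcccgcaaggccATGgacgttctgggctgg

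The windows lie at chr5:71094585-71094614 (Gabra2, minus strand), chrX:72552799-72552828 (Gabra3, minus), chr5:71657792-71657821 (Gabra4, minus), chr7:57508047-57508076 (Gabra5, minus), chr5:71700004-71700033 (Gabrb1, plus), chr11:42421338-42421367 (Gabrb2, plus) and chr4:155397945-155397974 (Gabrd, minus). All 7 starts had a purine 3 bases before the ATG, as did 84.1% of 20639 annotated coding transcripts, and 3 of them (Gabra4, Gabra5 and Gabrd) also had a G directly after it, against 41.0% with both. Gabra2, Gabra3, Gabrb1 and Gabrd had no other ATG in the leader. Gabra4 and Gabra5 had 2 each and Gabrb2 had 5, where 55.4% of all leaders held at least 1.

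The reading frames of both upstream ATG codons in Gabra4 and of the second in Gabra5 ran past the main start codon, a layout that 18.5% of all transcripts showed for at least 1 upstream ATG. The longer of the pair in Gabra4 and that in Gabra5 are printed with the upstream ATG in capitals, and the read counts around them follow below.
Gabra4 upstream: caggcttaaagtATGgcatgttgcgaagat
Gabra5 upstream: cggcgaagcaggATGcgccctcgccgacgg

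The Gabra4 window lies at chr5:71657808-71657837 and its ATG begins 16 bases before the start codon, opening a frame of 64 codons that ends 179 bases into the coding sequence. The Gabra5 window lies at chr7:57509766-57509795 and its ATG begins 118 bases before the start codon, with a frame of 46 codons that ends 23 bases into the coding sequence. The 5 upstream frames of Gabrb2 all closed inside its leader.

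Gabra2 had the highest footprint level of the 7 in each library. Gabra2 encodes an alpha subunit of synaptic receptors that is strong in young forebrain, and its CDS held 8520 (Chx), 1814 (Harr) and 6938 (WT) reads. Per length and depth this was 176 (Chx), 137 (Harr) and 169 (WT) RPKM, reads per kilobase and per 1000000 reads of the library. These levels exceeded those of 94.9%, 97.2% and 94.5% of the 11459 genes with at least 100 CDS reads over the 3 libraries. Gabra2 stood 3.16-fold (Chx), 3.32-fold (Harr) and 2.81-fold (WT) above the next member.

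Both beta subunit genes followed. Gabrb2, the most abundant beta subunit of the adult brain, had 55.7 (Chx), 41.4 (Harr) and 60.2 (WT) RPKM from 2835, 575 and 2593 CDS reads. Gabrb1 had 46.7, 32.7 and 46.4 RPKM from 2378, 455 and 1998 reads. Gabrb2 lay above Gabrb1 in each library by more than counting error, by 1.19-fold to 1.30-fold.

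Gabra5, an alpha subunit of extrasynaptic receptors that is prominent in the hippocampus, ranked next in each library. It had 30.7 (Chx), 19.5 (Harr) and 27.9 (WT) RPKM from 1529, 265 and 1175 CDS reads. The remaining 3 genes lay near the median gene, which had 12.4, 8.0 and 11.7 RPKM. Gabra3, an X-linked alpha subunit gene that is strong in fetal cortex, had 14.9 (Chx), 9.08 (Harr) and 14.9 (WT) RPKM from 785, 131 and 667 CDS reads.

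Gabra4 encodes an alpha subunit that often pairs with delta in extrasynaptic receptors, and had 10.9 (Chx), 6.55 (Harr) and 16.9 (WT) RPKM from 644, 106 and 849 CDS reads. Gabrd, the delta subunit gene itself, had 9.89, 4.33 and 7.23 RPKM from 477, 57 and 295 reads. Gabra4 and Gabrd did not differ beyond counting error in Chx, with a log2 difference of 0.14 ± 0.09 (SE from counts). In WT, Gabra4 lay 1.13-fold above Gabra3, an order that was turned in Chx and Harr. It was turned in WT as well without the first 2 coding exons of each gene, at 5.46 RPKM for Gabra4 and 10.2 for Gabra3. Every other pair of neighbours in the order differed by more than counting error.

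**Figure D1:**
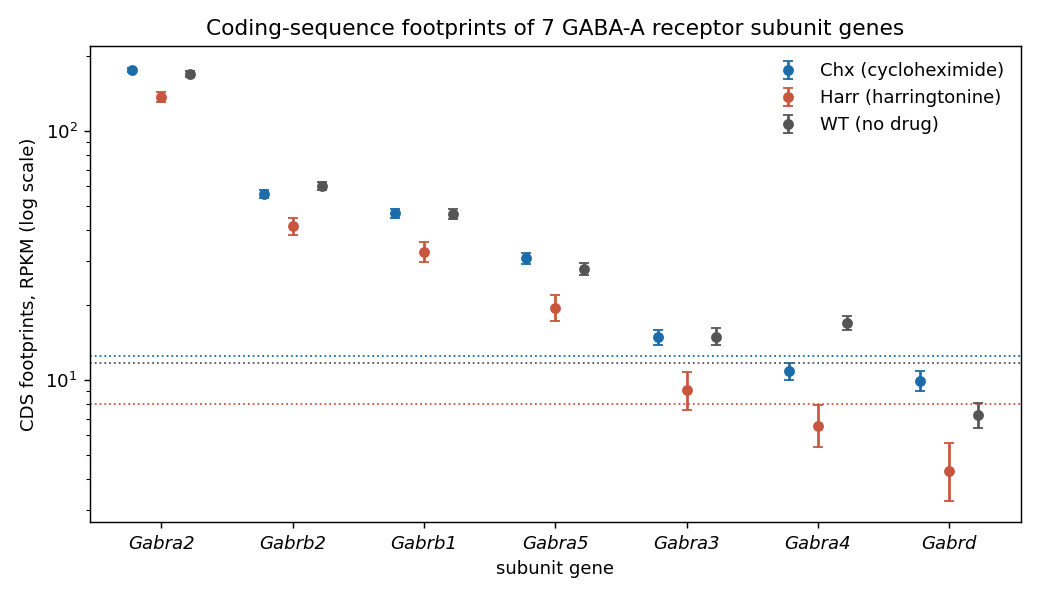
CDS footprint level in RPKM (log axis) of each of the 7 subunit genes in the Chx, Harr and WT libraries, 1 point per library with its exact Poisson 95% interval; dotted lines mark the median of 11459 genes in the library of the same colour. Gabra2 lies highest in each library, at 176, 137 and 169 RPKM, and Gabrd lies lowest, at 9.89, 4.33 and 7.23.

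Together the 7 genes took 0.0849% (Chx), 0.0902% (Harr) and 0.0871% (WT) of the CDS reads. Another 12 genes encode further subunits of the receptor family, and 6 of them had at least 100 CDS reads over the 3 libraries. Their levels summed to 318 (Chx), 270 (Harr) and 300 (WT) RPKM, against 345, 251 and 343 for the 7 genes described here, so the 7 held 52.0%, 48.2% and 53.3% of the summed subunit level.

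The first comparison asked how the treatments changed the amount of footprints on each coding sequence, as CDS reads of a gene per 1000000 CDS reads of the library. The 3 comparisons share libraries and are not independent of each other. None of the 7 genes changed by 2-fold or more with an interval that excluded 0. Over 11459 genes, 4.63% were higher and 13.7% lower by that rule in Harr than in Chx, 5.3% were higher and 14.3% lower in Harr than in WT, and 0.201% were higher and 0.122% lower in Chx than in WT.

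For Gabra2 the log2 CDS ratio was 0.19 ± 0.04 (Harr over Chx), 0.21 ± 0.04 (Harr over WT) and 0.02 ± 0.02 (Chx over WT). The CDS ratios of Gabrb1 were all within counting error of 0. For Gabrb2 only the Chx to WT value lay outside counting error, at −0.15 ± 0.04. The interval of Gabra3 included 0 in each comparison, with −0.16 ± 0.14, −0.20 ± 0.14 and −0.04 ± 0.08, and that of Gabra5 did as well. As folds, the values of these 5 genes lay between 0.870 and 1.16 in the 3 comparisons. Several of these values changed when the first 2 coding exons were left out, an alternative added once the values were known. The scaling to all CDS reads was kept, and over 2401 genes of like CDS length the median went from −0.08 to −0.05 for Harr over Chx and from −0.04 to −0.01 for Harr over WT. Gabra5 was then lower in Harr, at −0.56 ± 0.13 against Chx and −0.37 ± 0.13 against WT. Gabra2, Gabrb1 and Gabrb2 were then higher in Harr than in Chx, at 0.47 ± 0.04, 0.26 ± 0.08 and 0.34 ± 0.08. Against WT they were higher in Harr as well, at 0.70 ± 0.04, 0.20 ± 0.08 and 0.21 ± 0.08. The Gabra3 values for Harr turned to 0.14 ± 0.16 against Chx and 0.23 ± 0.16 against WT, with intervals that still included 0. For Chx over WT, Gabra2 and Gabra5 were then higher, at 0.23 ± 0.03 and 0.20 ± 0.07, and Gabrb2 stayed lower, at −0.13 ± 0.05. The median there went from 0.04 to 0.02.

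The remaining 2 genes moved more. Gabrd was lower in Harr than in Chx, at −0.63 ± 0.20, and higher in Chx than in WT, at 0.41 ± 0.11. Gabra4 was lower in Harr than in WT, at −0.85 ± 0.15, and lower in Chx than in WT, at −0.68 ± 0.08. The Gabra4 difference lay in its first 2 coding exons. Without them it held 275 (Chx), 62 (Harr) and 240 (WT) reads, and the ratios became 0.20 ± 0.20 for Harr to WT and −0.08 ± 0.13 for Chx to WT. Over those later exons Gabra4 had 5.29, 4.37 and 5.46 RPKM, against 8.38, 3.51 and 5.72 for Gabrd.

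The second comparison asked how far footprints shifted from the coding sequence to the 5′ UTR. All 7 genes had a 5′ UTR:CDS ratio over 2-fold higher in Harr, whether set against Chx, where 89.4% of 10722 genes did the same, or against WT, where 94.3% of 10313 did. The median log2 change of the 7 was 2.94 against Chx and 2.91 against WT, beside 2.46 and 3.23 over all genes measured. Most measured genes thus showed the same shift.

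Gabra2 had 666 (Chx), 1619 (Harr) and 465 (WT) reads in its 291-nucleotide leader. Of its 5′ UTR, CDS and 3′ UTR reads together the leader thus held 7.24% in Chx (6.73 to 7.79, Wilson interval), against 46.3% in Harr (44.6 to 47.9) and 6.26% in WT (5.73 to 6.84). This gave a log2 change of the ratio of 3.51 ± 0.08 against Chx and 3.73 ± 0.08 against WT. The last 16 bases of this leader, which precede the start codon in the exon shown above, carried 476 (Chx), 3319 (Harr) and 374 (WT) RPKM. The separate first exon, 275 nucleotides long and with no ATG, carried 40.1, 410 and 34.2 RPKM from 394, 1101 and 284 reads. Harr reads on Gabra2 were therefore not limited to the bases next to the start codon, and the change in that first exon alone against the CDS was 3.71 ± 0.09 between Harr and Chx.

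Gabra3 had few leader reads, with 25 (Chx), 54 (Harr) and 64 (WT) over 215 nucleotides. Its change between Harr and Chx was 3.67 ± 0.37, within counting error of the Gabra2 change. Its change between Harr and WT was the lowest of the 7, at 2.10 ± 0.30, within counting error of Gabra5 at 2.15 ± 0.15. With the first exon alone in place of the whole leader, these changes were 3.62 ± 0.59 and 3.38 ± 0.59, and the latter was no longer the lowest. Of the leader reads 16, 35 and 55 fell in the last 35 bases before the start codon, which are coding in another annotated transcript of Gabra3, so footprints there cannot be assigned to one region. The first exon, 180 nucleotides long, held 9, 19 and 9 reads. The first coding exon of the longer annotated protein form held 2, 0 and 2 reads over 80 bases.

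Gabra4 had 157 (Chx), 199 (Harr) and 67 (WT) reads in a leader of 499 nucleotides, which was 19.6%, 64.4% and 7.29% of its 5′ UTR, CDS and 3′ UTR reads. The change against WT, 4.56 ± 0.25, was the highest of the 7, and the change against Chx was 2.94 ± 0.22. Measured against coding exons after the second alone, these changes were 3.51 ± 0.29 and 2.48 ± 0.25. Annotated transcripts of different length divide this leader. The 66 bases nearest the start codon held 110 (Chx), 102 (Harr) and 44 (WT) reads, or 46.7, 158 and 22.1 RPKM. The farthest 327 bases held 18, 36 and 14 reads, or 1.54, 11.3 and 1.42 RPKM. Both upstream ATG codons lie within those 66 bases.

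Gabra5 had the largest share of its reads in the leader in Chx and WT, with 524 (Chx), 337 (Harr) and 337 (WT) reads over 344 nucleotides. The leader held 25.5%, 54.4% and 22.2% of the 5′ UTR, CDS and 3′ UTR reads. Per nucleotide it was as dense as the CDS or denser in each library, at 1.39, 5.15 and 1.16 times. The Harr to Chx change was the lowest of the 7, at 1.89 ± 0.14, with an interval that overlapped that of Gabrd (2.51 ± 0.37). The Harr to WT change was 2.15 ± 0.15. The 270-base first exon, which holds both upstream ATG codons, carried 349 (Chx), 183 (Harr) and 190 (WT) reads, or 36.2, 69.5 and 23.3 RPKM. Another transcript has a 193-base first exon with 5.66, 29.7 and 6.001 RPKM and a 60-base second exon with 24.7, 61.5 and 27.6. The 56-base first exon of the remaining transcript had 21.5, 73.2 and 15.95 RPKM. By density the 270-base exon was thus above these exons in Chx alone. Of the 25-base words in the Gabra5 CDS, 9.50% also occur in transcripts of 1 other gene, on either strand. The 2 strands were not separated, and some CDS reads could belong to that gene if the match is on the same strand. In the other members at most 1 word was shared with any other gene.

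For the beta subunit genes the shift was similar. Gabrb1 had 81 (Chx), 160 (Harr) and 93 (WT) reads in a leader of 84 nucleotides, and changes of 3.36 ± 0.21 against Chx and 2.91 ± 0.20 against WT. The second leader exon of another annotated transcript, 73 nucleotides long, held 58, 42 and 35 reads, and its first, 28 nucleotides long, held 1, 1 and 0. Gabrb2 had 205, 274 and 206 reads over 427 nucleotides, and changes of 2.72 ± 0.15 and 2.58 ± 0.15. Most of them lay in the 149 bases of the start exon, at 29.5 (Chx), 153 (Harr) and 34.9 (WT) RPKM. The first exon of Gabrb2, which holds 3 of its 5 upstream ATG codons, carried 4.83, 18.8 and 5.83 RPKM. Gabrd, with 54, 37 and 23 reads over 150 nucleotides, changed by 2.51 ± 0.37 and 3.04 ± 0.43.

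Between the single Chx and WT libraries, the 5′ UTR:CDS ratio passed 2-fold in 2 of the 7 genes. The median log2 change of the 7 was 0.22, beside 0.67 over all genes. Gabra4 was higher in Chx by over 2-fold, at 1.62 ± 0.22, as were 30.4% of 10429 genes. Against coding exons after the second alone, the Gabra4 change was 1.03 ± 0.25. Gabra3 was lower in Chx by over 2-fold, at −1.57 ± 0.35, as were 1.09% of genes. With only its first exon, which no other annotated form uses as coding, the Gabra3 change was −0.23 ± 0.67. The other 5 genes lay between −0.45 and 0.52. Among them the intervals excluded 0 in Gabra2 (0.22 ± 0.09) and Gabra5 (0.26 ± 0.12), both higher in Chx, and in Gabrb1 (−0.45 ± 0.22), lower in Chx. Those of Gabrb2 and Gabrd included 0.

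**Figure D2:**
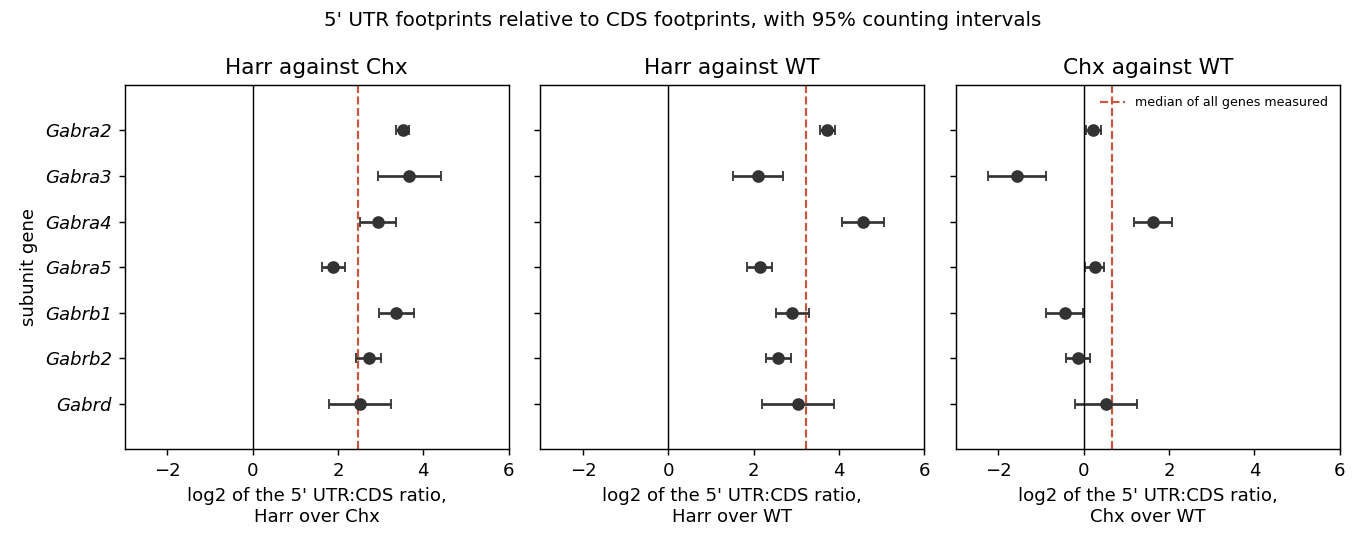
Log2 change of the 5′ UTR:CDS footprint ratio for each subunit gene between Harr and Chx, Harr and WT, and Chx and WT, with 95% counting intervals; the dashed line is the median of all genes measured and the solid line is no change. All 7 genes lie to the right of 0 in both comparisons of Harr, while in Chx against WT Gabra3 (−1.57) and Gabra4 (1.62) stand apart on opposite sides.

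The 3′ UTR, which has no annotated translation, served as a background region. It held 25 (Chx), 140 (Harr) and 82 (WT) reads over the 7 genes together. Gabra2 had 7, 66 and 23 reads over 4205 nucleotides, and Gabrb1 had 3, 20 and 20 over 12228. Gabrb2 had 8, 26 and 21 reads over 2137 nucleotides, and Gabra5 had 2, 17 and 9 over 935. Gabra3, Gabra4 and Gabrd had at most 7 reads in any library. Relative to the CDS, the Gabra2 change was 5.38 ± 0.56 for Harr to Chx and 3.44 ± 0.35 for Harr to WT. A gene with so few reads passes a minimum of 10 mainly through the library where it is high, so the number of genes past 2-fold is not read here. With that minimum 86.5% of 5216 genes were higher by over 2-fold in Harr against Chx and 79.7% of 5797 in Harr against WT, and 38.9% of 4591 were lower in Chx against WT, with the same limit. The leaders were far denser, with 570 RPKM in the Gabra2 leader against 1.61 RPKM in its 3′ UTR in Harr.

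The third comparison asked where along the coding sequence the footprints lay, since ribosomes that run on after harringtonine leave the start of a coding sequence first. All 7 genes have 9 coding exons, several of matching length, so they can be laid side by side. Reads in exons of the first and second part of the CDS, divided at its midpoint, were compared between libraries.

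Gabra2 held 67.7% of its CDS reads in the first part in Chx, 44.7% in Harr and 73.4% in WT, where that part makes up 51.8% of the length. The log2 change of the ratio of first to second part was −1.37 ± 0.08 for Harr to Chx and −1.77 ± 0.08 for Harr to WT. Gabrb1 changed by −1.66 ± 0.15 and −1.80 ± 0.15, Gabrb2 by −1.17 ± 0.13 and −1.58 ± 0.14, and Gabra3 by −1.44 ± 0.28 and −1.71 ± 0.28. These 4 genes passed the 2-fold rule between Harr and Chx, as did 43.8% of 3078 genes with a CDS of 1200 to 2000 nucleotides. Gabra4 joined them between Harr and WT, at −1.49 ± 0.33, which made 5 of 7 beside 43.9% of 3059 genes. Gabra5 changed least, by −0.28 ± 0.20 and −0.90 ± 0.21. Gabrd changed by −0.93 ± 0.40 between Harr and Chx and by a value just under the limit between Harr and WT. Between Harr and WT these 2 genes were within counting error of each other. With the first 600 nucleotides as the first part, Gabrd changed least there, at −0.54 ± 0.42 beside −0.70 ± 0.20 for Gabra5.

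Between Chx and WT none of the 7 passed the rule, where 1.6% of 3193 genes were higher and 1.25% lower in Chx. The 7 values lay between −0.06 ± 0.22 in Gabrd and −0.91 ± 0.19 in Gabra4, with a median of −0.40 beside 0.02 over all genes, of which 52.3% were above 0. With the first 600 nucleotides as the first part, Gabrd turned to 0.04 ± 0.21. The intervals of Gabra3, Gabrb1 and Gabrd included 0. In Gabra2, Gabra4, Gabra5 and Gabrb2 the first part was thus lighter in Chx than in WT by more than counting error.

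Exon by exon, the footprints of all 7 genes were densest in coding exon 1 or 2 in each library. In Gabra2, exon 2 fell from 413 (Chx) and 592 (WT) RPKM to 85.7 in Harr, while exon 9 had 124, 102 and 187 RPKM in Chx, WT and Harr. Gabrb2 had 226 and 250 RPKM in exon 2 in Chx and WT and 108 in Harr, against 34.0, 28.0 and 51.3 in exon 9. In RPKM, Harr was thus the lowest library in exon 2 and the highest in exon 9 of both genes. Exon 1 of Gabra2 had 381 (Chx), 296 (Harr) and 354 (WT) RPKM. RPKM is scaled to all reads, of which the CDS held a smaller share in Harr, and a gap of that size depends on the scale. Gabra5 kept its front in Harr: exons 1 and 2 had 51.3 and 66.4 RPKM, and exon 3 had 4.52. Exon 2 of Gabra5 had 64.7 (Chx) and 62.4 (WT) RPKM, within the counting interval of Harr, while exons 3 to 6 were lower in Harr. In Gabrd, Harr had 21.1 RPKM in exon 1 and between 0 and 6.77 in the others.

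**Figure D3:**
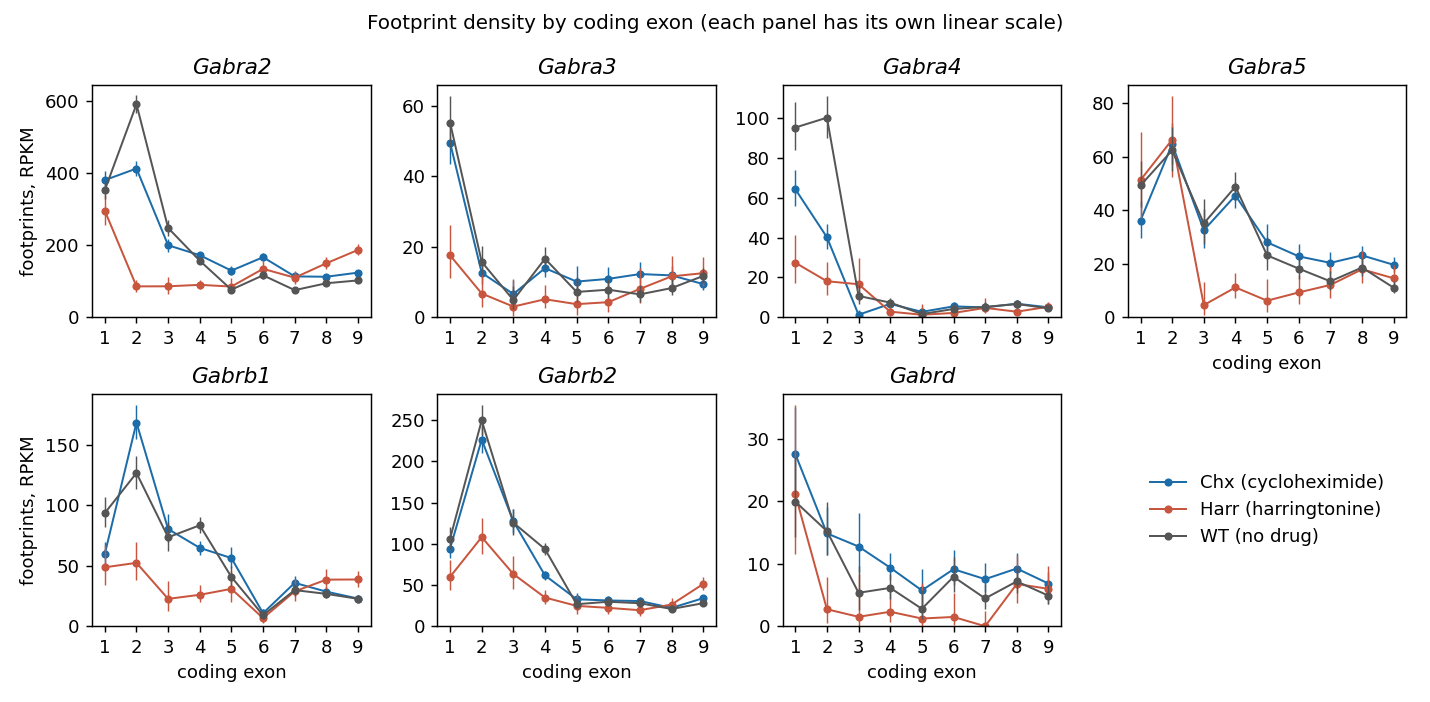
Footprint density in RPKM over coding exons 1 to 9 of each subunit gene, 1 line per library with exact Poisson 95% intervals; each panel has its own linear axis from 0. Density is highest in exon 1 or 2 in each gene, Harr lies below Chx and WT over the early exons of most genes, and Gabra4 has few reads in any library after exon 2.

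Exon length bears on these values. Over all genes, inner coding exons of 60 to 74 nucleotides had 0.769 (Chx), 0.756 (Harr) and 0.788 (WT) times the density of the long inner exons of the same gene, and those of 100 to 149 nucleotides had 0.923, 0.913 and 0.927. The dip of Gabrb1 in its sixth coding exon, 138 nucleotides long, was larger. That exon had 10.8 (Chx), 6.69 (Harr) and 9.11 (WT) RPKM, between 56.3, 30.9 and 40.7 in the exon before and 35.9, 28.8 and 29.8 in the exon after. The exon of the same length and place in Gabrb2 had 31.2, 22.3 and 29.7 RPKM.

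In Chx and WT the front of Gabra4 was the most loaded of the 7. Its first 2 coding exons make up 12.4% of the CDS and held 57.3% of its CDS reads in Chx (53.4 to 61.1, Wilson interval), while the share was 41.5% in Harr (32.6 to 51.0) and 71.7% in WT (68.6 to 74.7). In the other 6 genes those exons held 25.7% to 38.6% in Chx and 28.9% to 43.8% in WT. In Harr the Gabra5 share, 46.0% (40.1 to 52.1), was higher than that of Gabra4 but inside the Gabra4 interval, and the other 5 genes had 16.6% to 29.8%. Relative to the later exons, the density of the first 2 exons of Gabra4 was 9.52-fold (Chx), 5.03-fold (Harr) and 18.0-fold (WT), beside medians of 1.78, 1.44 and 1.65 over genes of like CDS length. Gabra4 exceeded 99.7% of 2531 such genes in Chx, 92.4% of 1853 in Harr and 99.8% of 2477 in WT.

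The dense stretch of Gabra4 lay where the upstream frame shown above overlaps the coding sequence. That frame, from the ATG 16 bases before the start codon, covers the first 179 bases of the CDS: all of exon 1 and the first 93 bases of exon 2. These bases held 368 (Chx), 44 (Harr) and 604 (WT) reads, or 57.6, 25.2 and 112 RPKM. Exons 3 to 9, with 1454 bases, held 275, 62 and 240 reads, or 5.29, 4.37 and 5.46 RPKM. The overlapped bases were thus 10.9-fold (9.30 to 12.7), 5.76-fold (3.92 to 8.48) and 20.4-fold (17.6 to 23.7) denser. The last 26 bases of exon 2, after the stop codon of the frame, held 1, 0 and 5 reads. Short inner exons are read poorly in general, as those of 20 to 29 nucleotides had 0.110, 0.221 and 0.121 times the usual density over all genes. These were whole exons, whereas the 26 bases are the end of a longer exon, so the values set no expected count for them. The stop codon of this frame is also the annotated stop of a Gabra4 transcript marked for nonsense-mediated decay. Counts by exon carry no frame, so it cannot be told whether any of these reads came from the upstream frame.

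**Figure D4:**
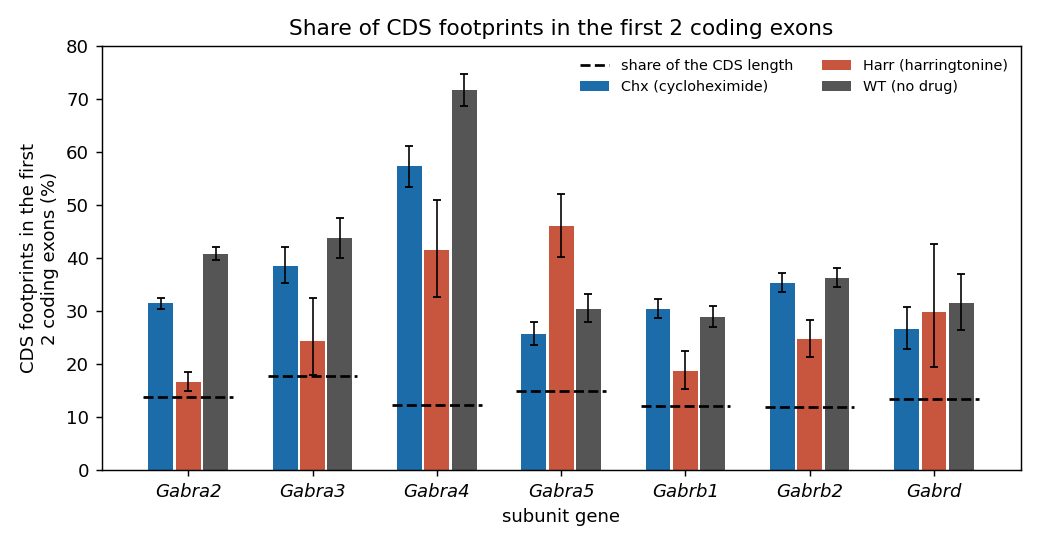
Share of CDS footprints (%, axis from 0) in the first 2 coding exons of each subunit gene in the Chx, Harr and WT libraries, with Wilson 95% intervals; dashed lines give the share of the CDS length those exons make up. Gabra4 stands highest in Chx (57.3%) and WT (71.7%), and in Gabra5 Harr (46.0%) lies above Chx (25.7%) and WT (30.5%).

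Gabrb2 has an annotated optional coding exon of 114 nucleotides, or 38 codons, between its eighth and ninth shared coding exons, at chr11:42602115-42602228 on the plus strand. It lengthens the large intracellular loop of the beta2 subunit, the part of the protein that trafficking and anchoring partners contact. Its first 30 bases are shown because this exon tells the long form of the subunit from the short one.
Gabrb2 optional exon: atgttttataaagatattaaacaaaatggg

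Almost no footprints lay in it. The exon held 2 (Chx), 1 (Harr) and 0 (WT) reads, where the density of the shared exons would give 226.8, 46.0 and 207.4. Over the 3 libraries this was 0.625% of the shared density (exact Poisson interval 0.129 to 1.83). Against the 2 neighbouring exons alone it was 1.2% (0.247 to 3.5). Inner exons of 100 to 149 nucleotides, as given above, came close to the usual density over all genes. By density, the form without this exon thus held nearly all Gabrb2 footprints.

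**Figure D5:**
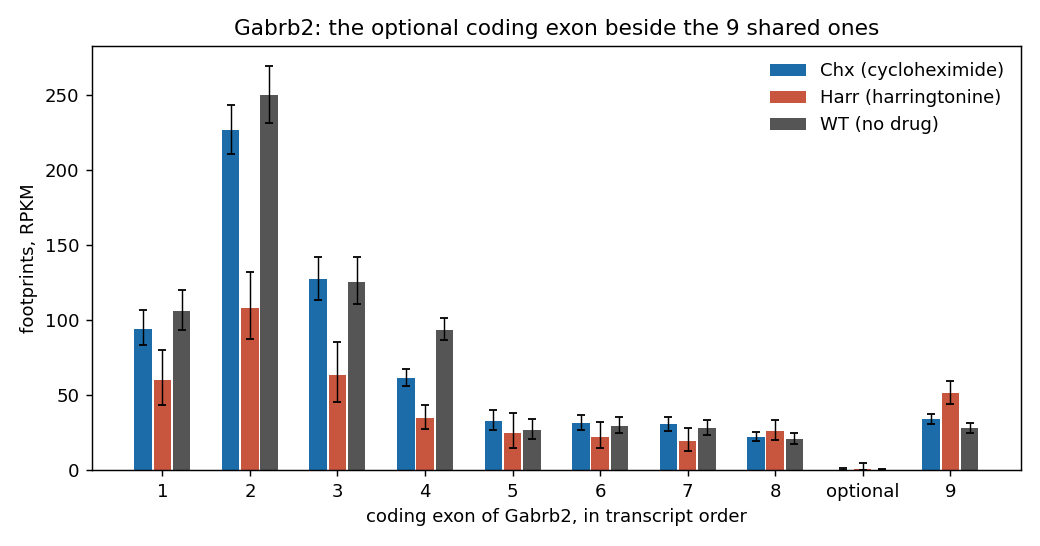
Footprint density in RPKM (linear axis from 0) over the 9 shared coding exons of Gabrb2 and its optional exon, in transcript order, for the Chx, Harr and WT libraries, with exact Poisson 95% intervals. The optional exon, with 2, 1 and 0 reads, lies near 0 between exons 8 and 9, which hold 195, 63 and 155 and 423, 174 and 294 reads.

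A list of 26 genes that make, carry, sense or anchor GABA signalling gives the surroundings of the receptor. In the CDS ratio, 1 of the 26 was higher by over 2-fold and 1 lower in Harr against Chx, 1 higher and 3 lower in Harr against WT, and none in Chx against WT, with medians of 0.07, 0.22 and −0.02. As shares of 26, the counts of lower genes are below the 13.7% and 14.3% of all genes, and those of higher genes are near the 4.63% and 5.3%. In the 5′ UTR:CDS ratio, 22 of 25 measured genes were higher in Harr with Chx as the reference and 24 of 25 with WT, and 7 were higher and 1 lower in Chx than in WT. The medians there were 2.01, 3.19 and 0.48. The 5′ UTR counts are, as shares of 25, near those over all genes given above.

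Among the named genes of that list, Gphn, the scaffold gephyrin that clusters synaptic receptors, had 34.2 (Chx), 41.2 (Harr) and 38.2 (WT) RPKM. The GABA-making enzyme Gad1 had 363, 188 and 416 RPKM. The vesicular transporter Slc32a1 had 194, 70.7 and 211 RPKM and was 1 of the 3 genes lower in Harr against WT. The other 2 were Gabarap, a trafficking factor that binds gamma subunits, with 433, 188 and 592 RPKM, and Gabarapl1, with 437, 125 and 480, which was also the gene lower against Chx. The gene higher in Harr in both comparisons was Insyn1, an inhibitory synapse protein, with 4.90, 7.70 and 5.01 RPKM; it was named after its values were seen. Slc12a5, the chloride exporter that makes GABA hyperpolarizing, had 51.5, 41.9 and 44.7 RPKM, and the importer Slc12a2 had 10.9, 9.54 and 9.09. The metabotropic receptor genes Gabbr1 and Gabbr2 had 69.6, 51.7 and 61.8 and 14.0, 13.3 and 11.3 RPKM.

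The gene most like a member was sought among 11449 genes by Euclidean distance over 9 values, the log2(RPKM + 0.1) of the 3 regions in the 3 libraries. For Gabra4 the nearest was Gabrg3, a gamma subunit gene, at 0.78 log2 units. The nearest to Gabra2 was Nedd4 (1.37), to Gabra3 Dph5 (1.08), to Gabrb2 Ppp2r5e (0.94) and to Gabrd Kti12 (1.04). The 9 values share libraries and are a description of these 3 libraries only.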

How the data were processed

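Ribosome footprints of primary mouse cortical neurons were analysed from 9 deposited tables, 1 for each of 3 libraries and 3 regions (5′ UTR, CDS and 3′ UTR). The authors counted reads of 25 to 100 nucleotides at their 5′ end, with an offset of 0, after removing ribosomal reads and duplicates (mm10, per the file headers, which have the form Plastid writes). The deposited counts are raw read numbers per exon segment. The deposited coverage signal is the count per nucleotide, and the RPKM values deposited beside it scale the count to kilobases and to 1000000 reads. For its search of reading frames in these libraries the study names Bowtie, to remove ribosomal reads, and TopHat, for alignment to the transcriptome; whether the deposited tables came from those alignments is not given in the sources used here, nor is the version of the counter. Only counts were used, and RPKM was recomputed from them.

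Libraries were grouped by treatment title. Sample descriptions in free text name other fractions and a "dep neuron", which goes against the titles and treatments, and were not used. Of 142446 transcript identifiers, 99.0% matched GENCODE M21 with their version and 99.3% in all. The longest transcript with all 3 regions represented each gene; the study also took the longest transcript, without stating that requirement. Lysates were digested with micrococcal nuclease, per the study's methods.

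Log2 ratios had 0.5 added to each count, with standard errors from counts. A value passed when it was at least 1 in size and its 95% interval excluded 0. CDS ratios needed 100 CDS reads over the 3 libraries, and UTR and position ratios 10 reads per region in the pair. The calculation was checked on simulated data. Python 3.11.15 with pandas 2.3.3, NumPy 2.4.6, SciPy 1.17.1, statsmodels 0.14.6 and matplotlib 3.10.9 was used. Genes named were the 7 members, Gphn and list genes with at least 500 CDS reads in Chx (a selection of them is printed), the nearest gene to each member, and cell type markers; Insyn1 falls outside this rule and was named after its values were seen, and some of these are not reported here. The members and lists were chosen with earlier results of these data known. Alternatives covered the transcript, scaling, added count, minimum reads, UTR overlap and CDS division.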

Additional observations from a re-analysis of the deposited data

Results flagged for a closer look

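Reads fell on a part of Gabra2 outside the comparisons, a 240-nucleotide segment of a noncoding Gabra2 transcript at chr5:71094961-71095200, between the first exon and the start exon of the coding form. It held 27 (Chx), 31 (Harr) and 31 (WT) reads, above the floor of 3 counts in each library. These are raw counts, and the Harr library was the smallest, so the density was highest in Harr. The only other such segment, of 102 nucleotides in Gabrd, held 1, 1 and 2 reads.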

How the results depend on the processing

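No paired analysis was possible because each treatment has 1 library and the results come from no test. No value that had passed 2-fold changed sign under any alternative. With genes whose UTRs overlap no CDS, 1 member in place of 2 passed in the 5′ UTR:CDS ratio of Chx against WT, since Gabra3 dropped out. In the 3′ UTR:CDS ratio, where the minimum of reads itself favours genes high in Harr, 5 members passed in Harr against Chx and 4 in Harr against WT with at least 10 reads, and 1 and 1 with at least 50, since only Gabra2 was left to measure. With the first 600 nucleotides as the first part, 1 member, Gabra4 at −1.01 ± 0.17, passed in Chx against WT. Per 1000000 CDS reads, the summed level of the members was 609 (Chx), 648 (Harr) and 622 (WT) against 345, 251 and 343 RPKM, so that Harr was the highest library and not the lowest. With the neighbouring exons as reference, the density of the optional Gabrb2 exon was 1.2% and not 0.625%, inside its counting interval. Every other count and sum under an alternative stayed within 1.5 times. Leaving out the first 2 coding exons was chosen after the data were seen; it moved 14 of 21 CDS ratios beyond their counting interval, in Gabra2 to 0.70 ± 0.04 (Harr against WT, where the median over 2401 genes was −0.01), and no count of members. Counting depth limits Gabra3, Gabra4 and Gabrd most, above all in Harr and in 3′ UTRs, and no value has a replicate.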
